A study of Rattus norvegicus with 9 samples.

Results

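Bcas1, Enpp6, Gpr17, Itpr2, Fyn, Tns3 and Evi2a are genes associated with the short stage between the oligodendrocyte progenitor and the myelinating oligodendrocyte. They were followed here through every probe annotated with 1 of the 7 symbols. Of the 7 genes, 6 had a probe, out of 12167 genes with an annotated probe in all, and Gpr17 is not analysed here because no probe carried its symbol in the annotation used. Tns3 had 2 probes and the other 5 genes had 1 each, which gives 7 probes.

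The arrays measured total RNA of 3 cell populations obtained by surface antigen from cultured oligodendrocyte progenitors of newborn rats. The O4 population carried the O4 antigen without NG2, the NG2/A2B5 population carried A2B5 and NG2 together, and the NG2 population carried NG2 alone. No treatment or genotype is given, and by the labels the populations differ in sort antigen only. Each population had 3 single-colour arrays, numbered I, II and III in their titles. The design text speaks of 3 cultures and of comparing each population with the other populations, but no label ties a numeral to a culture, so a p-value reflects only the array-to-array spread, part of which may be technical. In bulk RNA of this kind, fewer cells of a type and less RNA per cell cannot be told apart.

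When a progenitor leaves the cell cycle it passes through a premyelinating stage, in which it extends many branched processes and either contacts axons or dies. NG2 and A2B5 mark progenitors, whereas O4 recognises sulfatides, lipids that appear as the cells mature. The genes considered here are known as marks of that passage. Bcas1 labels early myelinating cells, Gpr17 is a G protein-coupled receptor that is switched on and off again during it, Enpp6 is a choline-specific glycerophosphodiesterase of newly differentiating cells, and Itpr2 is an inositol trisphosphate receptor that releases calcium from the endoplasmic reticulum. Fyn is a Src family kinase that promotes process outgrowth and local translation of myelin basic protein. Tns3 encodes a tensin, an adaptor between integrins and actin, and Evi2a encodes a transmembrane protein whose gene lies inside the Nf1 gene.

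None of the 6 measured genes passed the test between populations after adjustment over all probes. Bcas1 was among the brightest probes in all 3 populations, Tns3 was moderately bright, Itpr2 and Evi2a were of middling signal, and Enpp6 and Fyn were dim. For Bcas1, Itpr2 and the brighter Tns3 probe the arrays III read highest whichever population they held, as for 8.77% of probes. The NG2/A2B5 arrays of Evi2a lay below those of both other populations, as for 0.958% of probes, while its O4 and NG2 arrays overlapped. The second, very dim Tns3 probe read highest in O4 without overlap, as 7.73% of probes did against NG2 and 5.97% against NG2/A2B5. Values are the deposited scaled intensities, on which each array's median lay between 1.051 and 1.067 and its 25th percentile between 0.2047 and 0.2551. Signal also depends on the probe, so levels were compared between arrays and not between genes.

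**Figure D1:**
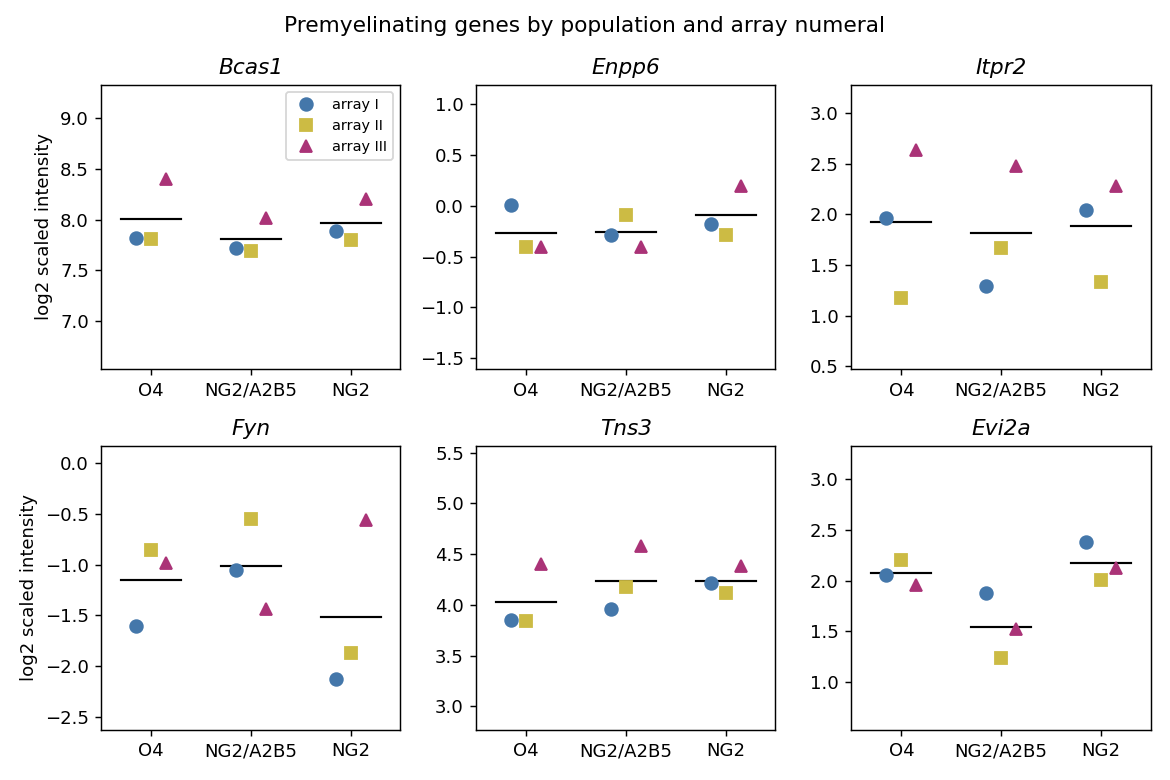
Intensity of each measured gene (log scale) on the 9 arrays, by population from left to right, with each array's numeral. For Bcas1, Itpr2 and the brighter Tns3 probe the arrays III stand above the arrays I and II, and for Evi2a the NG2/A2B5 arrays stand below the others.

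Bcas1, named for its amplification in breast cancer and abundant in oligodendrocytes, read 226, 224 and 339 intensity units on the O4 arrays I, II and III, 211, 207 and 258 on the NG2/A2B5 arrays, and 237, 223 and 296 on the NG2 arrays. The arrays of the 3 populations overlapped, and the arrays III were the 3 brightest of the 9. Every reading lay between the 99.57th and the 99.85th percentile of its own array. On the log2 scale the Bcas1 mean of the O4 arrays was 8.01 ± 0.34, that of the NG2/A2B5 arrays 7.81 ± 0.18 and that of the NG2 arrays 7.97 ± 0.21 (SD, n = 3 each). In limma's test across all probes the O4 minus NG2 difference was 0.05 (95% interval -0.48 to 0.57, adjusted p = 0.971). In this fit, which has no block for the numeral, the interval leaves room for a change of up to 1.49-fold in O4. With the numeral as a fixed block the interval was narrower, -0.29 to 0.38. Without the block, the O4 minus NG2/A2B5 difference was 0.20 (adjusted p = 0.954) and the NG2/A2B5 minus NG2 difference was -0.16 (adjusted p = 0.9997). Bcas1 was lowest in NG2/A2B5 within each numeral, by 0.11 to 0.20 on the log2 scale against NG2, an order that 3.73% of all probes also showed. Quantile normalization turned the O4 minus NG2 difference of Bcas1 to -0.18, so its sign was not settled.

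Itpr2 and Tns3 were the other genes of at least middling signal that followed the numeral. Their RefSeq start-site windows of 300 bases in GRCr8 are shown with that of Enpp6, which did not follow it. The Itpr2 window is chr4:181134818-181135117, the Tns3 window chr14:87619337-87619636 and the Enpp6 window chr16:52026679-52026978, all on the minus strand and printed 5′ to 3′ along the gene. Capitals mark every match, on either strand, to GGGCGG (a GC box), CAGCTG (an E-box), ACAAAG and ACAATG (cores bound by Sox factors). TATAAA (the TATA box) was searched too and was found in none of these windows.
Itpr2: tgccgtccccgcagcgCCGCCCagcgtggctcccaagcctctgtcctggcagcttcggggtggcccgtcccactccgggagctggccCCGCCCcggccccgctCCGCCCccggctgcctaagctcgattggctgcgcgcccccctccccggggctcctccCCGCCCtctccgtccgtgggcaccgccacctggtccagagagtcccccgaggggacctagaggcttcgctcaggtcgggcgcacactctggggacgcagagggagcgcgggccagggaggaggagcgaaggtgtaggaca
Tns3: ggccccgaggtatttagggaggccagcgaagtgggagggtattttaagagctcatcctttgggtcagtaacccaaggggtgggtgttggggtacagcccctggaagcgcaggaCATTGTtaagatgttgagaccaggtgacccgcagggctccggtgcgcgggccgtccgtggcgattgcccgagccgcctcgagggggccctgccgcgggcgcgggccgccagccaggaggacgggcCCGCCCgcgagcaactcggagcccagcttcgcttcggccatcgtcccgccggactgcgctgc
Enpp6: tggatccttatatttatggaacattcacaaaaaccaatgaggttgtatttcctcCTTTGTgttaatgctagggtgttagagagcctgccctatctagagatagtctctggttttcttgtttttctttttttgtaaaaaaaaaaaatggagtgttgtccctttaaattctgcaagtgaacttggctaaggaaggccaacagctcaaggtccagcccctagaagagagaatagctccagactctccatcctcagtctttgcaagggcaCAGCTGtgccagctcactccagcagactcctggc
The Itpr2 window was 75.0% G and C, with 29 CG dinucleotides and 4 GC boxes, and the Tns3 window was 68.3%, with 29 CG dinucleotides, 1 GC box and 1 ACAATG. The Enpp6 window was 43.3% G and C with no CG dinucleotide, and it held 1 CAGCTG and 1 ACAAAG. Over 33469 listed windows of this length the motifs occurred in 33.1% (GGGCGG), 15.1% (CAGCTG), 18.8% (ACAAAG), 13.2% (ACAATG) and 14.2% (TATAAA), and none of the motifs overlapped another in these windows. A match describes the letters of 1 listed window and not a bound site. Of the 7 genes, 5 had a listed window. That of Fyn, which did not follow the numeral either, was 78.0% G and C with 42 CG dinucleotides, 3 GC boxes and 1 ACAAAG. A relation between these windows and the numeral was not tested.

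Itpr2 read 3.91, 2.26 and 6.23 intensity units on the O4 arrays I, II and III, 2.46, 3.19 and 5.55 on the NG2/A2B5 arrays, and 4.12, 2.52 and 4.87 on the NG2 arrays. The population ranges overlapped almost wholly, while the 3 arrays III lay above the other 6. The log2 mean was 1.93 ± 0.73 for O4, 1.81 ± 0.60 for NG2/A2B5 and 1.89 ± 0.49 for NG2 (SD, n = 3 each). The O4 minus NG2 difference was 0.04 with a 95% interval from -1.05 to 1.13 (limma, adjusted p = 0.987), which as a ratio runs from 0.483-fold to 2.19-fold. With the numeral as a fixed block the interval was narrower, -0.66 to 0.74. Within the numerals the O4 minus NG2/A2B5 difference of Itpr2 was 0.67 on arrays I, -0.50 on arrays II and 0.16 on arrays III, with no common direction.

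The brighter Tns3 probe read 14.4, 14.4 and 21.1 intensity units on the O4 arrays I, II and III, 15.5, 18.1 and 23.9 on the NG2/A2B5 arrays, and 18.6, 17.4 and 20.9 on the NG2 arrays. Here too the arrays III were the highest 3 of the 9, and the populations overlapped. The Tns3 log2 mean was 4.03 ± 0.32 for O4, 4.24 ± 0.32 for NG2/A2B5 and 4.24 ± 0.14 for NG2 (SD, n = 3 each). Neither O4 contrast passed limma's test: O4 minus NG2 was -0.21 (95% interval -0.76 to 0.34, adjusted p = 0.827) and O4 minus NG2/A2B5 was also -0.21 (adjusted p = 0.954). The second Tns3 probe gave 0.179, 0.155 and 0.314 in O4, 0.105, 0.0786 and 0.0902 in NG2/A2B5, and -0.0472, 0.129 and 0.0636 in NG2. It was above the 25th percentile of the array on 1 of 9 arrays. Its O4 arrays stood above those of the other populations without overlap, as 7.73% of all probes did against NG2 and 5.97% against NG2/A2B5, but its log2 difference of O4 minus NG2, 4.12, rests on the value substituted for the single reading below 0 (95% interval -0.94 to 9.18, adjusted p = 0.688). The probes of Tns3 thus disagree in the sign of that contrast, and only the brighter probe carried a signal well above the 25th percentile.

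Evi2a read 4.16, 4.62 and 3.89 intensity units on the O4 arrays I, II and III, 3.67, 2.37 and 2.87 on the NG2/A2B5 arrays, and 5.20, 4.03 and 4.37 on the NG2 arrays. Every NG2/A2B5 array lay below every O4 and every NG2 array, and O4 and NG2 overlapped. A full separation of NG2/A2B5 below the other populations was seen for 0.958% of 34555 probes with a value on all arrays, and for 0.521% of the 17278 probes at or above the median signal. The Evi2a log2 mean was 2.08 ± 0.13 for O4, 1.55 ± 0.32 for NG2/A2B5 and 2.17 ± 0.19 for NG2 (SD, n = 3 each). The NG2/A2B5 minus NG2 difference was -0.63 (95% interval -1.11 to -0.14), an interval without 0, but limma's adjusted p over all probes was 0.9997. The O4 minus NG2/A2B5 difference was 0.53 (95% interval 0.04 to 1.02, limma, adjusted p = 0.947). Non-overlapping arrays were found for 4.65% of probes with NG2/A2B5 under NG2 and for 5.97% with O4 above NG2/A2B5. Evi2a was lower in NG2/A2B5 than in NG2 within each numeral, by 0.50, 0.77 and 0.61 on arrays I, II and III. Without NG2/A2B5 array II, the darkest of the 9, the differences were -0.47 for NG2/A2B5 minus NG2 and 0.38 for O4 minus NG2/A2B5.

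Evi2a, Evi2b and Omg all lie within the interval of Nf1, the Ras regulator neurofibromin, in GRCr8. Omg, an oligodendrocyte surface glycoprotein, read 24.9, 16.5 and 23.8 intensity units in O4 arrays I, II and III, 24.4, 19.8 and 28.5 in NG2/A2B5, and 32.2, 21.2 and 28.3 in NG2. Its arrays II were the lowest in each population, as those of Evi2a were in NG2/A2B5 and NG2 but not in O4. Unlike those of Evi2a, the NG2/A2B5 arrays of Omg overlapped the O4 and the NG2 arrays. Nf1 read 32.7, 27.9 and 32.1 in O4, 35.4, 42.0 and 38.4 in NG2/A2B5, and 33.8, 27.6 and 38.2 in NG2, highest in NG2/A2B5 within each numeral. On arrays III that lead over NG2 was slight, and the NG2/A2B5 and NG2 arrays of Nf1 overlapped. The share of probes with that order was not counted. Evi2b was above the array's 25th percentile on 5 of 9 arrays only.

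Enpp6 read 1.01, 0.754 and 0.756 intensity units on the O4 arrays I, II and III, 0.821, 0.940 and 0.754 on the NG2/A2B5 arrays, and 0.881, 0.818 and 1.14 on the NG2 arrays. All 9 readings lay near the middle of their array (44.51st to 51.08th percentile), and neither populations nor numerals separated. Its O4 minus NG2 difference was -0.17 on the log2 scale (95% interval -0.66 to 0.31, limma, adjusted p = 0.838). Fyn was dimmer still, with 0.329, 0.553 and 0.504 in O4, 0.483, 0.684 and 0.369 in NG2/A2B5, and 0.229, 0.274 and 0.676 in NG2. The Fyn arrays overlapped in every comparison, and the lowest and the highest O4 reading differed less than those of NG2. The O4 minus NG2 difference of Fyn, 0.37, had a 95% interval from -0.68 to 1.42 (limma, adjusted p = 0.842), which reaches a level 2.68-fold higher in O4. It was 0.068 without NG2 array I and 0.85 without NG2 array III.

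Over all probes the population contrasts called few: 2 of 35004 (0.00571%) in O4 minus NG2, 1 of 35002 (0.00286%) in O4 minus NG2/A2B5 and 1 of 35008 (0.00286%) in NG2/A2B5 minus NG2, and none of the 7 probes of these genes was among them. With the numeral as a fixed block all 3 counts were 0, and the p-values of the genes stayed above the threshold. At an unadjusted p under 0.05, 0 of the 7 probes passed in O4 minus NG2 (background 7.76%), 1 in O4 minus NG2/A2B5 (background 4.42%) and 1 in NG2/A2B5 minus NG2 (background 4.15%), and the passing probe was that of Evi2a in each case. The median difference of the 6 genes, by brightest probe, was -0.03 in O4 minus NG2 against 0.02 over all genes, 0.05 against 0.02 in O4 minus NG2/A2B5, and -0.11 against -0.01 in NG2/A2B5 minus NG2. The last contrast had 5 of the 6 genes below 0, against 6278 of 12166 over all genes. Among the 5, Tns3 stood at -0.0018 and Itpr2 at -0.07, and both changed sign when single arrays were left out. The contrasts share arrays and are therefore not independent.

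**Figure D2:**
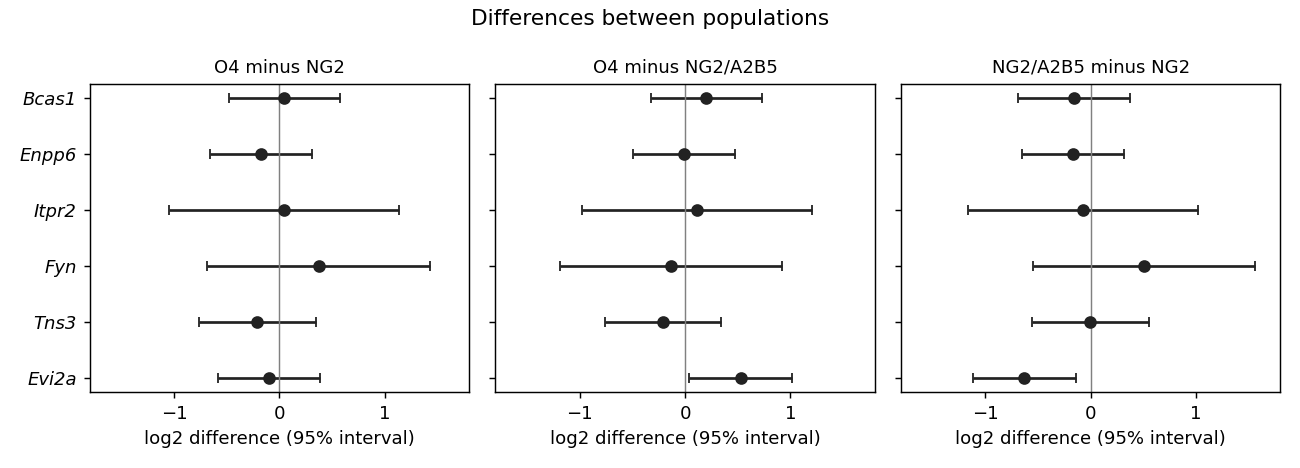
Log2 differences of the measured genes in the 3 population contrasts, with 95% limma intervals, against a line at 0. Every interval except those of Evi2a against NG2/A2B5 crosses 0, and Evi2a differs by 0.53 (O4 minus NG2/A2B5) and -0.63 (NG2/A2B5 minus NG2).

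By numeral, Bcas1, Itpr2 and the brighter Tns3 probe read highest on the arrays III in each population. That order was shown by 8.77% of 34555 probes and by 12.9% of those at or above the median signal. For all 3 genes every array III also lay above every array I and II, against 3.83% of all probes, dim ones included. The share among probes at or above the median signal was not counted for this. Over all genes the median difference was -0.08 in arrays III minus II, 0.02 in III minus I and 0.10 in II minus I, each over the brightest probe of a gene. In arrays III minus II, limma with population as a term gave a log2 difference of 0.44 for Bcas1 (95% interval 0.10 to 0.78, adjusted p = 0.214). The difference was 1.07 for Itpr2 (0.37 to 1.77, adjusted p = 0.175) and 0.41 for Tns3 (0.03 to 0.79, adjusted p = 0.276). Of the 7 probes, the 3 of these genes were under an unadjusted p of 0.05, as 16.6% of all probes were. No probe of 35009 passed the adjusted threshold in this fit, against 2737 (7.82%) with limma's trend and robust estimates, under which Itpr2 (adjusted p = 0.0125) and Bcas1 (adjusted p = 0.0372) passed and Tns3 did not (adjusted p = 0.105). Higher readings without overlap in arrays III than in arrays II were found for 9.52% of all probes, and all 3 genes were among them.

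In arrays III minus I the differences of the same genes were 0.40 for Bcas1, 0.70 for Itpr2 and 0.45 for Tns3, with adjusted p-values in limma of 0.526, 0.558 and 0.526, and 2 of the 7 probes, those of Bcas1 and Tns3, were under an unadjusted p of 0.05 (8.98% of all probes). All 3 genes read higher on every array III than on any array I, as 9.2% of all probes did. For Itpr2 this difference was 1.18 in NG2/A2B5, 0.67 in O4 and 0.24 in NG2, so its size varied between populations, and without NG2/A2B5 array I it was 0.39. Enpp6, Fyn and Evi2a did not separate the arrays III from the arrays I or II. In arrays II minus I, 0 of the 7 probes were under an unadjusted p of 0.05 in limma, against 11.6% of all probes. The adjusted threshold was passed by 0% of probes in each of the 3 numeral contrasts of this fit.

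**Figure D3:**
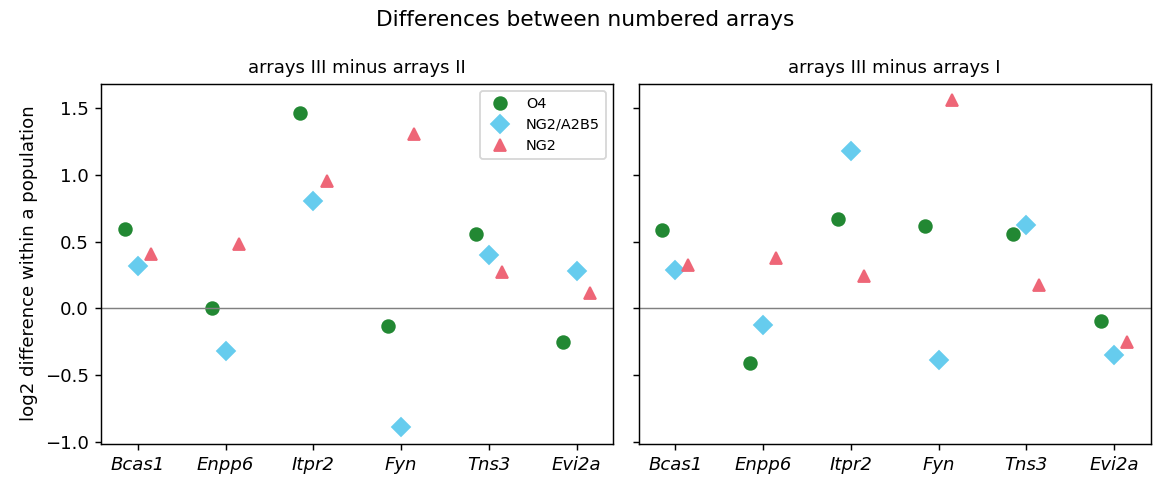
Log2 differences of the measured genes between the arrays of different numerals, with a point for each population and no intervals. Each point is the difference between single arrays. In arrays III minus II the points of Bcas1, Itpr2 and the brighter Tns3 probe lie above 0 in every population.

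Split into shares of the variance of the 9 log2 values, the numeral held 78.22% for Bcas1, 77.07% for Itpr2 and 70.14% for Tns3, against a median of 29.43% over all probes and 38.19% over those at or above the median signal. The population held 0.8432% for Itpr2 and 14.8% for Bcas1. For Evi2a the order was the opposite, with 69.25% held by the population and 13.95% by the numeral, beside a median of 22.54% by population over all probes. Enpp6 and Fyn left 78.3% and 59.4% to neither. The shares are descriptions of 9 arrays.

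**Figure D4:**
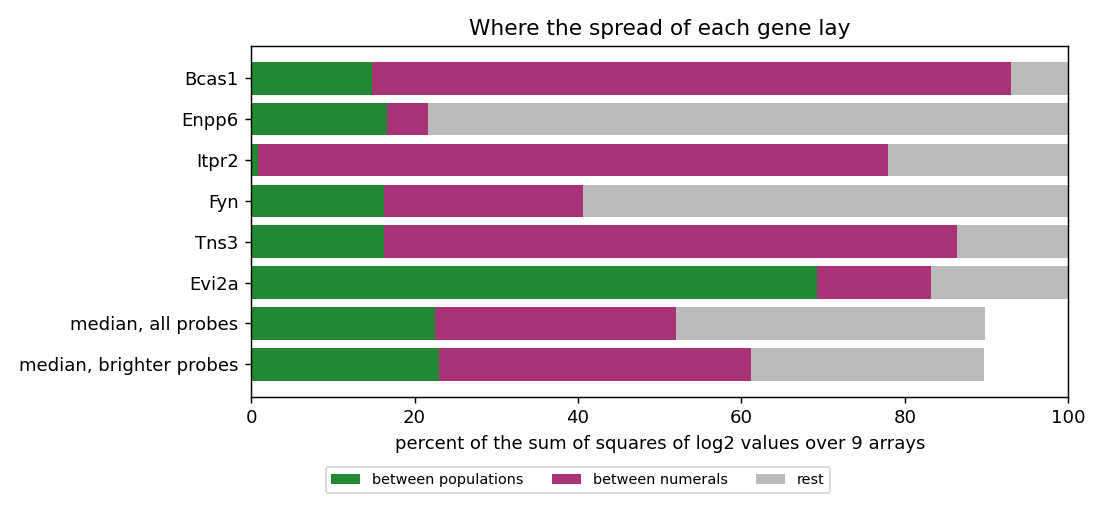
Share of the variance over the 9 arrays held by population, by numeral and by neither, in percent, for each measured gene and as medians over probes. The medians of the 3 shares need not add to 100. Bcas1, Itpr2 and Tns3 are led by the numeral and Evi2a by the population.

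By the smallest root mean square difference between log2 deviations over the 9 arrays, among 7773 genes of at least median signal, the patterns nearest to Bcas1 were those of Bscl2 (0.0777) and Tspan15 (0.0787), beside a deviation of 0.225 for Bcas1 itself. For Tns3 they were Lrpap1 (0.0753) and Wdr20 (0.0838) beside 0.243, for Itpr2 Steap2 (0.152) and Klhl5 (0.163) beside 0.506, and for Evi2a Nol3 (0.190) and Rras (0.194) beside 0.331. The patterns nearest to Enpp6 were Ccdc107 (0.0925) and Smg6 (0.0997) beside 0.198, and those nearest to Fyn, Ppip5k1 (0.363) and Acot3 (0.368), were distant relative to its own 0.530.

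Among families and partners of the genes, 37 of 43 listed were measured, and none passed the adjusted threshold in any of the 6 contrasts. The dynein light chains Dynll1 and Dynll2, binding partners of Bcas1, did not share its numeral pattern. Dynll1 read highest on array III in NG2/A2B5 only. Dynll2 read lowest on array III in each population, as 7.47% of probes did. Between populations, Dynll2 was higher in O4 than in NG2 by 0.40 on the log2 scale (limma, adjusted p = 0.659), with no overlap between the arrays, as for 7.73% of probes. Enpp2 (autotaxin), a relative of Enpp6, read 5.78, 2.29 and 10.9 intensity units in O4, 4.14, 4.21 and 12.1 in NG2/A2B5, and 6.88, 2.11 and 11.3 in NG2, arrays I to III. Its arrays III were the highest in each population, with a difference of 2.07 in arrays III minus II (limma, adjusted p = 0.103), whereas Enpp6 showed no such order. Itpr1, an inositol trisphosphate receptor like Itpr2, had the opposite sign from it in arrays III minus I (-0.58, limma, adjusted p = 0.482). Yes1, a Src family kinase like Fyn, was lower in O4 than in NG2 by 0.56 (limma, adjusted p = 0.637), and its O4 arrays all lay below the NG2 arrays, as for 6.7% of probes. Tns1, a tensin like Tns3, was lower on arrays III than on arrays II by 0.94 (limma, adjusted p = 0.142), opposite in sign to Tns3, and Itga6, an integrin, was lower there by 2.17 (adjusted p = 0.0763).

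Of a list of 32 genes of committed and newly formed oligodendrocytes, 21 were measured and none passed the adjusted threshold. In O4 minus NG2, 16 of them lay below 0 and 5 above (median -0.29, against 0.02 over all genes), where 5849 of 12165 genes lay below 0. In O4 minus NG2/A2B5, which shares the O4 arrays, 16 also lay below 0 and 5 above (median -0.10, against 0.02). There 5694 of 12165 genes lay below 0. Elovl6, a fatty acid elongase, was the first by p, at -0.70 in O4 minus NG2 (limma, adjusted p = 0.618). In arrays III minus II the list had 13 genes above 0 and 8 below (median 0.26, against -0.08 over all genes), and the 3 with the smallest p were, in that order, Tmem163 at 1.83 (adjusted p = 0.0701), Lims2 at 1.36 (adjusted p = 0.0747) and Myrf, the transcription factor required for myelin genes, at 1.69 (adjusted p = 0.0811). The 6 premyelinating genes all lay above 0 in that contrast, with a median of 0.25, where 5247 of 12166 genes did. Enpp6, Fyn and Evi2a were close to 0 there, at 0.06, 0.09 and 0.05, and each changed sign when single arrays were left out. The counts are of lists chosen with the results known, and no list was tested.

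Markers of the cell types showed 6 of 7 oligodendrocyte lineage genes measured, 5 above the array's 25th percentile on every array, with a summed intensity of 400.4 to 491.6 on the arrays III, 290.3 to 351.9 on the arrays II and 320 to 404 on the arrays I. Cspg4, which encodes NG2, was not lower in O4 beyond its error: O4 minus NG2 was -0.30 (95% interval -0.94 to 0.35, limma, adjusted p = 0.793). The summed intensity of 8 astrocyte markers, 4 of them above the 25th percentile on every array, was 82.41 to 107.1 on the arrays III, 50.07 to 83.19 on the arrays II and 61.93 to 71.38 on the arrays I. For 4 measured of 8 neuron markers, with Snap25 above that percentile on no array, it was 78.72 to 106.2 on the arrays III, 36.09 to 64.08 on the arrays II and 52.79 to 68.56 on the arrays I. The neuron sums of the arrays III stood apart, while the lineage sums overlapped those of the arrays I and the astrocyte sums those of the arrays II. Single markers did not all share the direction of their sum. Of the 8 astrocyte markers, 5 lay below 0 in arrays III minus II, among them Gja1 at -2.06, and that sum was carried by Slc1a3 (38.6 to 96.4 intensity units, difference 0.56). Of the measured neuron markers 3 of 4 lay above 0, among them Stmn2, which was above the 25th percentile on 1 of 9 arrays. The neuron sum was carried by Gap43 (28.7 to 84.5 intensity units, difference 0.75), followed by Dcx (4.04 to 21.4, difference 1.43). Of the lineage markers 4 of 6 lay above 0, while Olig1 (-0.16) and Olig2 (-0.73) lay below. The lineage sum was carried by Cnp (155 to 265 intensity units, difference 0.49) and Cspg4 (92.1 to 185, difference 0.49). The part of the cell type markers in the readings of Bcas1, Itpr2 and Tns3 was not tested. Microglia markers summed to 6.505 to 8.533 on the O4 arrays, 6.722 to 8.089 on the NG2/A2B5 arrays and 6.651 to 8.779 on the NG2 arrays, with C1qa, C1qb and C1qc above the 25th percentile on no array.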

How the data were processed

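The authors deposited 1 table of scaled intensity on a linear scale, with 9 single-colour arrays and 35129 probes. Per the labels' protocols, total RNA was amplified in 2 rounds of in vitro transcription and biotin-labelled, with spiked mRNA controls used for normalization. The scanner, software and scaling steps were not given in the sources used here. Readings coded -9999 were treated as missing, which left 34926 to 34975 probes per array, and readings at or below 0 (0.8323% to 1.006% per array) were replaced by the smallest positive reading of the array before log2. No further normalization was applied. The number of arrays limits the precision.

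Probes were named from the platform annotation and updated by Entrez identifier through the RefSeq gene table of GRCr8 (16836 matched, 1 symbol updated): 16865 carried 1 symbol, 165 several and 18099 none. A gene is represented by its probe with the highest mean, except that both Tns3 probes are given. Contrasts came from limma 3.58.1 in R 4.3.3 on all probes, two-sided, with a call at an adjusted p (Benjamini-Hochberg) below 0.05. The population model had no block (6 residual degrees of freedom, prior 1.54), and the numeral model had population as a term (4 and 1.36). Errors are SDs or 95% intervals. Shared numerals paired the arrays: deviations from population means correlated at 0.197 to 0.628 in all 9 same-numeral pairs and at -0.491 to 0.0678 in the 18 others, over 17278 probes.

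Start-site windows come from RefSeq. Relatives and list genes are named by the 3 smallest p-values in each contrast and as closest family, and the text prints a part of them. The genes, lists and rules were chosen with earlier results of these data known. Alternatives were other probe sets, floors, normalizations, variance estimates (statmod 1.5.0), the replicate block and leaving out each array. The procedure was run on simulated data with independent noise on each array, unlike the arrays here, which were paired by numeral. Plots used Python 3.11.15 with matplotlib 3.10.9.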

Additional observations from a re-analysis of the deposited data

How the results depend on the processing

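Over 36 differences of the 6 genes, 2 of 678 values under another setting passed the adjusted threshold, both with trend and robust estimates (Bcas1 and Itpr2 in arrays III minus II), 41 changed sign and 635 kept sign and side. The replicate block changed no other call. The probe counts moved more, and the cause was not tested. In O4 minus NG2 (2 probes) the count was 1 with only single-symbol probes or 1 probe per gene, 0 with the floor at the 25th percentile, dim probes left out, trend and robust estimates, the fixed replicate block or only the 6 arrays compared, and 5 with the replicate block, trend and robust estimates. In O4 minus NG2/A2B5 (1 probe) it was 0 with the floor, without dim probes, with trend and robust estimates, with the fixed replicate block with or without them, and with 6 arrays. In NG2/A2B5 minus NG2 (1 probe) it was 0 with single-symbol probes, 1 probe per gene, the floor, no dim probes, trend and robust estimates, the fixed replicate block and 6 arrays, and 46 with the replicate block, trend and robust estimates.

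In arrays III minus II (0 probes) the count was 216 with single-symbol probes, 432 with 1 probe per gene, 1564 with the floor, 929 without dim probes, 2737 with trend and robust estimates and 250 without the population term. In arrays III minus I (0 probes) it was 2 with the floor, 168 with trend and robust estimates and 2 without the population term. In arrays II minus I (0 probes) it was 3, 28, 275, 93, 901 and 19 in the order given for arrays III minus II. Leaving out each array gave counts of 1 to 8, 0 to 12 and 1 to 12 in the 3 population contrasts and 0 to 3, 0 to 2 and 0 to 1 in the 3 numeral contrasts. The widest were 8 without NG2 array I, 12 and 12 without NG2/A2B5 array II, 3 and 2 without NG2 array III, and 1 without NG2 array I in II minus I.

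Signs turned for Bcas1 with quantile normalization (O4 minus NG2 -0.18, O4 minus NG2/A2B5 -0.0091). They turned for Tns3 with the mean of its probes and with the second probe (O4 minus NG2 1.96 and 4.12, O4 minus NG2/A2B5 0.49 and 1.18, NG2/A2B5 minus NG2 1.47 and 2.94), with quantile normalization or centred medians in NG2/A2B5 minus NG2 (0.0072 and 0.0081) and with quantile normalization in II minus I (-0.047). Leaving out an array turned the sign where the difference was small: O4 minus NG2 of Bcas1 (-0.15 to 0.17), Itpr2 (-0.31 to 0.42) and Evi2a (-0.18 to 0.0053), O4 minus NG2/A2B5 of Enpp6 (-0.14 to 0.078), Itpr2 (-0.24 to 0.49) and Fyn (-0.35 to 0.097), NG2/A2B5 minus NG2 of Itpr2 (-0.40 to 0.19) and Tns3 (-0.17 to 0.14), III minus II of Enpp6 (-0.16 to 0.23), Fyn (-0.45 to 0.59) and Evi2a (-0.096 to 0.23), III minus I of Enpp6 (-0.27 to 0.11), and II minus I of Enpp6 (-0.28 to 0.056) and Tns3 (-0.049 to 0.14). Without a change of sign, leaving out an array moved Fyn most widely: 0.068 to 0.85 in O4 minus NG2, 0.20 to 0.98 in NG2/A2B5 minus NG2 and 0.051 to 1.09 in III minus I. Signal over background limits Enpp6, Fyn and the second Tns3 probe most.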

Other observations

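Progenitor and myelin genes had their own counts in the same fits, in which none passed the adjusted threshold. Of 20 progenitor genes 16 were measured. In arrays III minus II, 13 of these lay above 0 and 3 below (median 0.57, against -0.08 over all genes), where 5247 of 12166 genes lay above 0. Tnr, the extracellular matrix protein tenascin-R, was higher there by 2.08 on the log2 scale (limma, adjusted p = 0.0747), and Gpr37l1, an orphan receptor, by 1.17 (adjusted p = 0.0949). The 3 genes below 0 were Olig2 at -0.73 (adjusted p = 0.233), Xylt1 at -0.44 (adjusted p = 0.286) and Olig1 at -0.16 (adjusted p = 0.733). In NG2/A2B5 minus NG2, Emid1 stood at 2.44 (limma, adjusted p = 0.9997), and in O4 minus NG2 at 1.91 (adjusted p = 0.618). Its O4 and NG2/A2B5 arrays overlapped (O4 minus NG2/A2B5 -0.53, limma, adjusted p = 0.949).

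Of 24 myelin genes 21 were measured, with 10 above 0 and 11 below in arrays III minus II. Fa2h, which makes the hydroxylated fatty acids of myelin lipids, was higher on arrays III by 2.32 (limma, adjusted p = 0.0739), and Ndrg1 stood at -2.72 (adjusted p = 0.0701).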
